A study of Rattus norvegicus with 14 samples.

Results

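The liver is the body's main store of vitamin A, and the enzymes described here carry out the steps by which retinol is turned into its active acid. Retinol is first oxidized to retinal, a reversible step that microsomal short-chain retinol dehydrogenases and cytosolic alcohol dehydrogenases can both perform. Retinal is then oxidized irreversibly to retinoic acid by retinal dehydrogenases such as Aldh1a1, and retinoic acid controls transcription through nuclear receptors. The members were all probe sets whose platform annotation named Rdh16, Rdh7, Rdh10, Aldh1a1, Adh1c, Adh4 or Adh7. This rule found 7 of 4736 genes named on the array and 9 of its 8740 probe sets besides controls: 2 probe sets each for Rdh16 and Adh1c and 1 for each of the others. All 9 were bright enough to be tested.

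Liver RNA came from male rats of 74 days, fed for 53 days on food that held enough vitamin A (sufficient) or lacked it (deficient), and was hybridised to single-channel Affymetrix rat arrays. No strain, other treatment or genetic change is named in the labels, and the make-up of the diets is not given in the sources used here. Each diet had 7 arrays: 4, numbered 1 to 4, were made with about 10 µg of total RNA, and 3, numbered 1, 2 and 4, with about 2 µg. Within a diet, arrays that carry one number were averaged, and the average is called an animal below, so n = 4 for each diet, and animal 3 of each diet rests on 1 array. Whether such arrays share a liver is not stated in the labels, so the p-values rest on the spread among the averages only, which may be partly technical. Levels are log2 of the scaled intensity plus 16, given as mean ± SD over animals, and differences are deficient minus sufficient, each with a standard error (SE). An intensity depends on the probes as well as on the transcript, so a brighter probe set does not mean a more abundant transcript, and brightness is given below only to show where a probe set lies among those tested. In whole liver, fewer cells of a type and less RNA per cell cannot be told apart.

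The deposited intensities had the same trimmed mean on every array, from 1001.9 to 1002.1, and medians from 175.1 to 231. Precision is limited by the number of arrays. As a sign of RNA quality, the 3' over 5' signal of GAPDH was 0.0626 higher in deficient animals on the log2 scale (exact permutation p = 0.743, two-sided), and that of beta-actin differed by -0.0951 (p = 0.457 in the same exact test). Hepatocyte markers were bright in both diets, at a summed intensity of 119049 to 162338 on sufficient and 150763 to 178943 on deficient arrays. Of 6 erythroid markers tested 4 fell in deficient livers, where 1.05% of all genes tested fell, and their summed intensity was 11783 to 15919 on sufficient against 3728 to 6800 on deficient arrays. Of 9 periportal hepatocyte markers Arg1 and Sds rose, where 26 of all 3135 genes tested rose. Of these 9, 8 differences were positive (median 0.42, against 0.05 over all genes). Of 8 pericentral markers Oat fell, and 5 differences were negative and 3 positive (median -0.22), Cyp2e1 at 0.43 among the positive. Of 4 macrophage markers Lgals3 rose and all 4 differences were positive (median 0.46), of 8 stellate cell markers Vim rose (median -0.19), and of 4 endothelial markers Lyve1 fell (median 0.08). None of 5 cholangiocyte or 3 lymphocyte markers passed (medians 0.40 and 0.05). The markers were chosen after their values were seen, so these counts are descriptions only. The part of these cell types in the values below was not tested.

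None of the 9 probe sets passed the diet comparison in limma at an adjusted p of 0.05, where 1.72% of the 5244 probe sets tested passed. Of the 9, 5 were higher and 4 lower in deficient livers. The class I alcohol dehydrogenase Adh1c was higher by both of its probe sets, by 0.32 and 0.43 on the log2 scale, and the retinol dehydrogenase Rdh16 was lower by both of its probe sets, by -0.30 and -0.88. These 4 probe sets had an unadjusted limma p under 0.05, against 14.5% of all probe sets tested: 2 higher, against 9.08%, and 2 lower, against 5.38%. The median difference was 0.18 over the 9 and 0.04 over all probe sets tested. The 4 deficient and 4 sufficient values did not overlap for 1 of the 9, lower in deficient livers, against 8.91% of all probe sets tested and 3.07% in that direction.

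**Figure D1:**
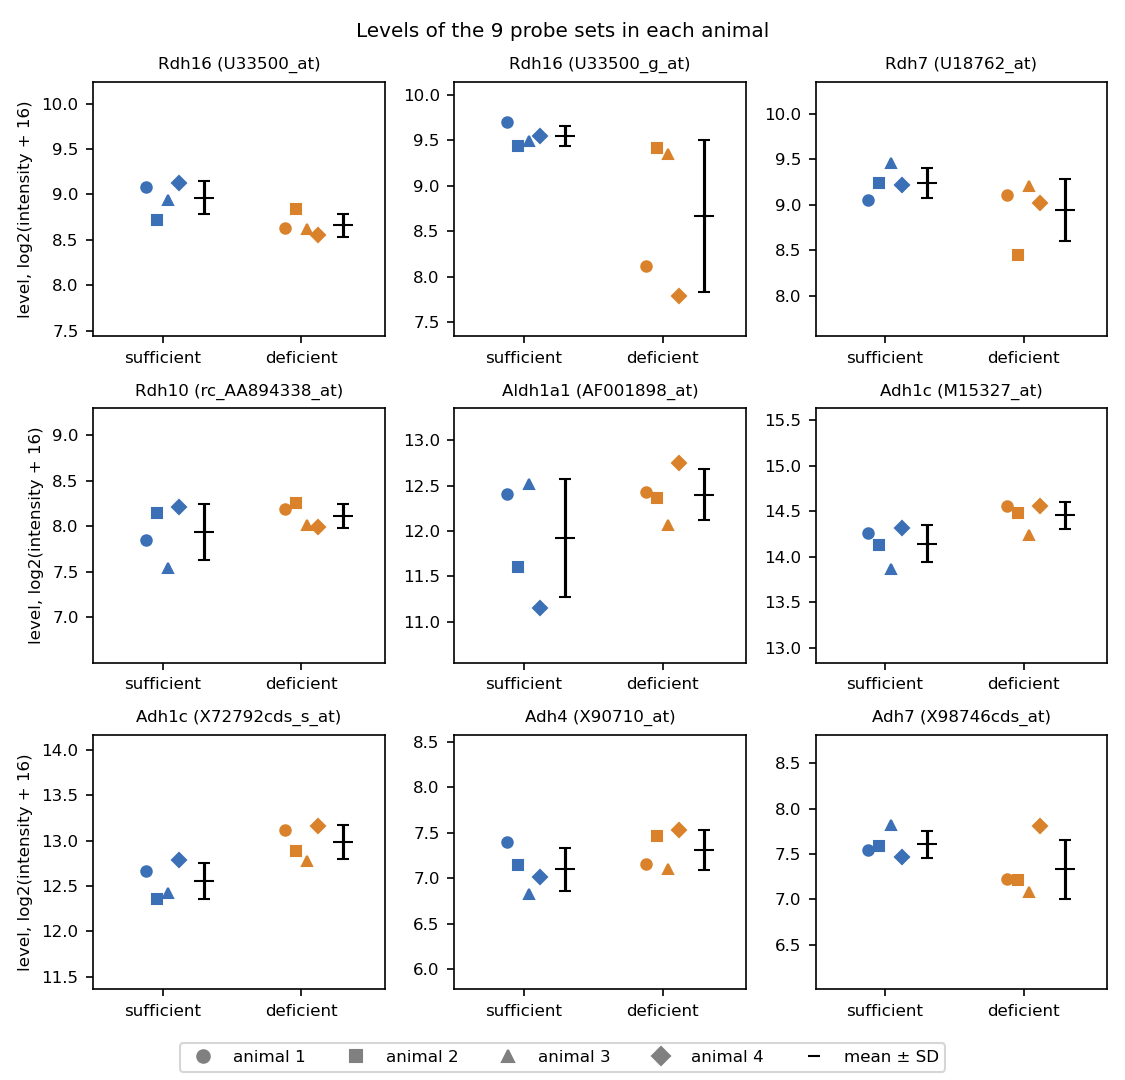
Level of each of the 9 probe sets (log2 of scaled intensity plus 16) in the 4 sufficient and 4 deficient animals, with the mean ± SD over animals beside the points. Every panel spans the same number of log2 units. The groups are separate for 1 probe set, U33500_g_at of Rdh16, whose deficient values form a high and a low pair, and Aldh1a1 is spread most widely in the sufficient animals.

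Rdh16 encodes a microsomal short-chain dehydrogenase that oxidizes retinol and some steroids. Its probe set U33500_at read 9.08, 8.72, 8.94 and 9.12 in sufficient animals 1 to 4 and 8.63, 8.84, 8.62 and 8.56 in deficient animals 1 to 4. The groups overlapped only through sufficient animal 2 and deficient animal 2. The mean was 8.97 ± 0.18 in sufficient and 8.66 ± 0.12 in deficient livers, a difference of -0.30 (SE 0.13, limma adjusted p = 0.320) with a 95% interval from -0.59 to -0.02.

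The other Rdh16 probe set, U33500_g_at, carries the same accession in its name. It read 9.70, 9.44, 9.50 and 9.55 in sufficient animals 1 to 4, a narrow range. In deficient animals 1 to 4 it read 8.12, 9.41, 9.35 and 7.79. Deficient animals 2 and 3 therefore lay just under the lowest sufficient animal, while deficient animals 1 and 4 lay far below, and the gap inside the deficient group, 1.22 on the log2 scale, was wider than the whole sufficient range. The difference between the diets was -0.88 (SE 0.33, 95% interval -1.59 to -0.16, limma adjusted p = 0.249), or 1.84-fold lower. An exact two-sided permutation test of the 4 against 4 values gave an unadjusted p = 0.0286, the smallest this design can give. Leaving out deficient animal 4 moved the difference to -0.59, and leaving out deficient animal 2 moved it to -1.13, neither with an adjusted p under the threshold (limma adjusted p = 0.457 and 0.126).

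The low signal of deficient animals 1 and 4 was seen on the arrays of both RNA amounts. In scaled intensity, U33500_g_at read 274.0 and 216.9 in these animals from 10 µg and 200.6 and 154.5 from 2 µg. Deficient animals 2 and 3 read 637.1 and 634.4 from 10 µg, and animal 2 read 557.7 from 2 µg. All 7 sufficient arrays lay between 528.6 and 799.2. From 2 µg the groups overlapped, with deficient animal 2 at 557.7 above sufficient animal 2 at 528.6. U33500_at, by contrast, put all deficient arrays close together, between 294.9 and 430.8.

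**Figure D2:**
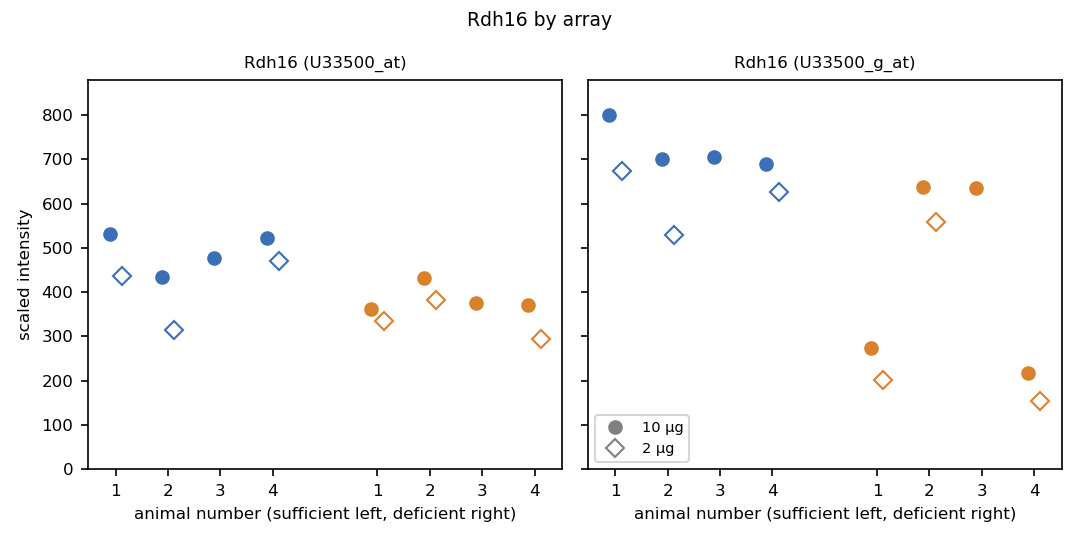
Scaled intensity of the 2 Rdh16 probe sets on each of the 14 arrays, by animal number, with sufficient animals in blue on the left and deficient animals in orange on the right. Filled circles are arrays from about 10 µg of RNA and open diamonds those from about 2 µg. In U33500_g_at the 4 arrays of deficient animals 1 and 4 lie between 154.5 and 274.0, below all other arrays, whereas in U33500_at the deficient arrays run from 294.9 to 430.8.

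The difference between the 2 Rdh16 probe sets, U33500_g_at minus U33500_at within an animal, was 0.43 to 0.72 in the sufficient animals. It was 0.57 and 0.73 in deficient animals 2 and 3, and -0.51 and -0.77 in deficient animals 1 and 4. Among 541 such pairs of probe sets named for 1 accession, the median range over the 4 deficient animals was 0.44, and 16 pairs, this one included, had a range at least as wide as that of Rdh16. Over the sufficient animals the Rdh16 pair had a range of 0.30, under the median of 0.47. The 2 probe sets ordered the 8 animals much alike (Pearson's r = 0.72 and Spearman's rho = 0.93, as a description), with the same sign of the diet difference. Only U33500_g_at set deficient animals 1 and 4 apart from 2 and 3. In U33500_at deficient animals 1 and 3 were level, at 8.63 and 8.62. Probe sets of closely related retinol dehydrogenases can bind each other's transcripts. Whether this bears on the low signal was not tested, and the gene behind that signal is uncertain.

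Rdh7, a close relative of Rdh16 that also oxidizes retinol in the microsomal membrane, read 9.06, 9.24, 9.46 and 9.22 in sufficient animals 1 to 4. In deficient animals 1 to 4 it read 9.10, 8.45, 9.21 and 9.02. Deficient animal 2 was low and the other deficient animals lay within or just under the sufficient range. The difference was -0.30 (SE 0.17, 95% interval -0.67 to 0.08, limma adjusted p = 0.493), and without deficient animal 2 it was -0.13. The low Rdh7 animal, number 2, was not one of the animals with low U33500_g_at signal. In the RefSeq table of the GRCr8 assembly, Rdh16 and Rdh7 lie on the same chromosome, each next to Rdh9.

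Retinoic acid receptors bind pairs of short sites built on the letters AGGTCA. Of the 7 genes, 5 had an upstream sequence in the RefSeq promoter table, and the 250 bases before the annotated start were searched on both strands for AGGTCA. Rdh7 held 2 matches and Adh4 held 1, and Aldh1a1, Adh1c and Adh7 held none in this window. Of all 33469 windows of that length, 14.1% held at least 1 match, so a match is common and is given as a description only. The Rdh7 sequence is shown because it was the member with most matches. It lies at GRCr8 chr7:65574619-65574868 on the minus strand, and capitals mark AGGTCA or its reverse complement, which begin 74 and 161 bases before the start:
Rdh7: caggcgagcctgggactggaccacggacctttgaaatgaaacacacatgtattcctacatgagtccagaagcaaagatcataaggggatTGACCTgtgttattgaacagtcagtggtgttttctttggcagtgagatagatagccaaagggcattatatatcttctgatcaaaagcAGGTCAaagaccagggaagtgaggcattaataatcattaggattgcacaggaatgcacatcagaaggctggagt

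Rdh10, the retinol dehydrogenase required for retinoic acid synthesis in the embryo, read 7.85, 8.15, 7.54 and 8.22 in sufficient animals and 8.19, 8.26, 8.02 and 7.99 in deficient animals 1 to 4. The deficient values all lay close together, and all but 1 of them were inside the wider sufficient range. The difference was 0.18 (SE 0.16, 95% interval -0.19 to 0.54, limma adjusted p = 0.709), and 0.04 without sufficient animal 3. The 2 amounts of RNA did not rank the animals alike for Rdh10: within an animal, 2 µg minus 10 µg ran from -0.69 to 0.10.

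Aldh1a1, the cytosolic enzyme that makes retinoic acid from retinal, had the widest spread of the 9 in sufficient livers. It read 12.40, 11.61, 12.51 and 11.16 in sufficient animals 1 to 4 and 12.43, 12.36, 12.07 and 12.75 in deficient animals 1 to 4. Sufficient animals 1 and 3 lay among the deficient animals, and sufficient animals 2 and 4 lay below all of them. The SD was 0.65 in sufficient livers, larger than that of 95.9% of the probe sets tested, and 0.28 in deficient livers, larger than that of 64.9%. The means were 11.92 and 12.40, a difference of 0.48 (SE 0.27, 95% interval -0.12 to 1.08, limma adjusted p = 0.482). Without sufficient animal 4 it was 0.23, and without sufficient animal 3 it was 0.68.

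For Aldh1a1 too, the low animals were low on the arrays of both RNA amounts. In scaled intensity, sufficient animals 2 and 4 read 3061 and 2253 from 10 µg and 3220 and 2336 from 2 µg, while sufficient animal 1 read 5403 and 5518. Sufficient animal 3, measured from 10 µg only, read 5834. The 7 deficient arrays read 4275 to 7046. Within an animal, 2 µg minus 10 µg ran from -0.05 to 0.07 on the log2 scale, so the spread between the sufficient animals far exceeded that between the 2 preparations.

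**Figure D3:**
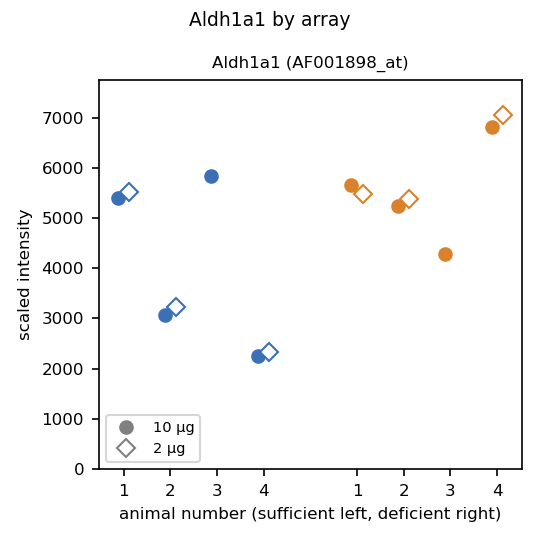
Scaled intensity of Aldh1a1 on each of the 14 arrays, by animal number, with sufficient animals in blue on the left and deficient animals in orange on the right. Filled circles are arrays from about 10 µg of RNA and open diamonds those from about 2 µg. Sufficient animals 2 and 4 lie between 2253 and 3220 on all their arrays, under every deficient array.

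The Aldh1a1 upstream sequence is shown because of a further motif. Its 250 bases, at GRCr8 chr1:227537370-227537619 on the plus strand, hold the octamer ATGCAAAT, found on either strand in 1.56% of all windows, and CCAAT in 2 places, found in 34.0%. Capitals mark these letters. The octamer begins 72 bases and the CCAAT matches 88 and 18 bases before the annotated start, and no match overlaps another:
Aldh1a1: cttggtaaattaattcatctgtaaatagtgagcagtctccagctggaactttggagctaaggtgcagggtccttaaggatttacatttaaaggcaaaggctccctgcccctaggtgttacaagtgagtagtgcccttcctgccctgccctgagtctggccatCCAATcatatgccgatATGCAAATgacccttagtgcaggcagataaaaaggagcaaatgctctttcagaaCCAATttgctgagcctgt

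Adh1c is the class I alcohol dehydrogenase of rat liver, which oxidizes ethanol and, with lower efficiency, retinol. Its probe set M15327_at read 14.26, 14.12, 13.86 and 14.32 in sufficient animals 1 to 4 and 14.55, 14.48, 14.24 and 14.55 in deficient animals 1 to 4. Deficient animals 1, 2 and 4 were above all sufficient animals, and deficient animal 3 was inside their range. The difference was 0.32 (SE 0.12, 95% interval 0.06 to 0.57, limma adjusted p = 0.253), or 1.24-fold higher. This probe set was brighter on average than 99.0% of those tested.

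The other Adh1c probe set, X72792cds_s_at, read 12.66, 12.36, 12.43 and 12.79 in sufficient and 13.12, 12.89, 12.77 and 13.16 in deficient animals 1 to 4. The groups overlapped by a hair, through sufficient animal 4 and deficient animal 3. The difference was 0.43 (SE 0.13, 95% interval 0.14 to 0.71, limma adjusted p = 0.146), or 1.35-fold higher, the smallest adjusted p of the 9. The exact two-sided permutation p was 0.0857 for M15327_at and 0.0571 for X72792cds_s_at. The suffix s marks a probe set that can match more than 1 related transcript, so part of this signal may come from relatives of Adh1c.

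The Adh1c calls depended on how the arrays of an animal were combined. In a fit of all 14 arrays, with each combination of diet and number as a random block, M15327_at was 0.31 higher (limma adjusted p = 0.0486) and X72792cds_s_at 0.44 higher (limma adjusted p = 0.0209) in deficient livers, and 4.77% of all probe sets passed. In that fit U33500_g_at of Rdh16 was -0.94 (limma adjusted p = 0.0551) and the other 6 did not pass either. With the 14 arrays as separate samples 3 of the 9 passed, the same Adh1c pair and U33500_g_at, against 6.66% of all probe sets. That fit counts arrays of 1 animal as independent, and the block fit used a shared correlation for all probe sets. Over 6 animals, with the diets pooled, the 2 amounts correlated at 0.93 (M15327_at), 0.95 (X72792cds_s_at) and 0.99 (U33500_g_at). The difference between the diets is part of these values, and the correlation within a diet was not computed for these probe sets. Where arrays of 1 animal are more alike than a fit assumes, its p-values are too small. This may hold for both fits. The 2 RNA amounts gave Adh1c nearly equal differences: 0.31 from 10 µg and 0.30 from 2 µg for M15327_at, and 0.44 from each for X72792cds_s_at. Arrays of 1 number were paired in the data, so these differences are not independent. Of 5 hepatocyte markers tested none passed, while all 5 differences were positive, as those of Adh1c were. Their median was 0.19, against 0.05 over all genes tested, and their part in the Adh1c values was not tested.

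The 2 Adh1c probe sets ordered the 8 animals much alike too (r = 0.91 and rho = 0.95), and in both the highest values belonged to deficient animals 1 and 4, those with the low U33500_g_at signal. Adh1c has neither AGGTCA nor ATGCAAAT in the 250 bases before its annotated start, at GRCr8 chr2:229470453-229470702 on the plus strand. It is shown as the member with the smallest adjusted p. Capitals mark CCAAT or its reverse complement, which begin 169 and 226 bases before the start:
Adh1c: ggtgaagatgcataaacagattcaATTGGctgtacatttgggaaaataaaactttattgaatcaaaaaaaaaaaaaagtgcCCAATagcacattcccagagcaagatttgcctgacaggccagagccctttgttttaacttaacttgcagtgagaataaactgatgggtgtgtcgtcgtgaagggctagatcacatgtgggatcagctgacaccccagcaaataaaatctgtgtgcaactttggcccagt

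Adh4, the class II alcohol dehydrogenase of liver, and Adh7, the class IV enzyme known mainly from stomach and other epithelia, are genes of the same cluster as Adh1c. In the RefSeq table Adh7 and Adh1c are next to each other, and Adh4 lies between Adh6 and Adh5. Their probe sets were among the dimmer ones tested, with 28.5% and 37.1% of the tested probe sets dimmer on average. Adh4 read 7.40, 7.14, 6.83 and 7.02 in sufficient and 7.15, 7.46, 7.10 and 7.53 in deficient animals 1 to 4. The groups overlapped, and the difference was 0.21 (SE 0.18, 95% interval -0.17 to 0.60, limma adjusted p = 0.658), with 0.12 left without sufficient animal 3 and 0.14 without deficient animal 4. From 10 µg it was 0.16 and from 2 µg 0.27.

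Adh7 read 7.54, 7.59, 7.82 and 7.47 in sufficient and 7.22, 7.21, 7.08 and 7.81 in deficient animals 1 to 4. In these averages deficient animals 1 to 3 were below all sufficient animals, and deficient animal 4 was level with the highest of them. The single arrays did not all keep this order. In scaled intensity from 2 µg, deficient animal 1 read 192.7, above sufficient animal 4 at 152.3. The difference was -0.27 (SE 0.18, 95% interval -0.66 to 0.12, limma adjusted p = 0.558), with -0.43 without deficient animal 4 and -0.19 without deficient animal 3 (limma adjusted p = 0.320 and 0.731). It was -0.31 from 10 µg but -0.07 from 2 µg. Within an animal the RNA amounts differed by -0.36 to 0.76 for Adh7 and by -0.25 to 0.45 for Adh4. The 2 amounts did not rank the animals alike for these genes either. Over 6 animals, with the diets pooled, Spearman's rho was 0.2 for each, as it was for Rdh10. The neighbouring Adh1c and Adh7 thus differed in sign, and whether their diet differences differ was not tested.

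**Figure D4:**
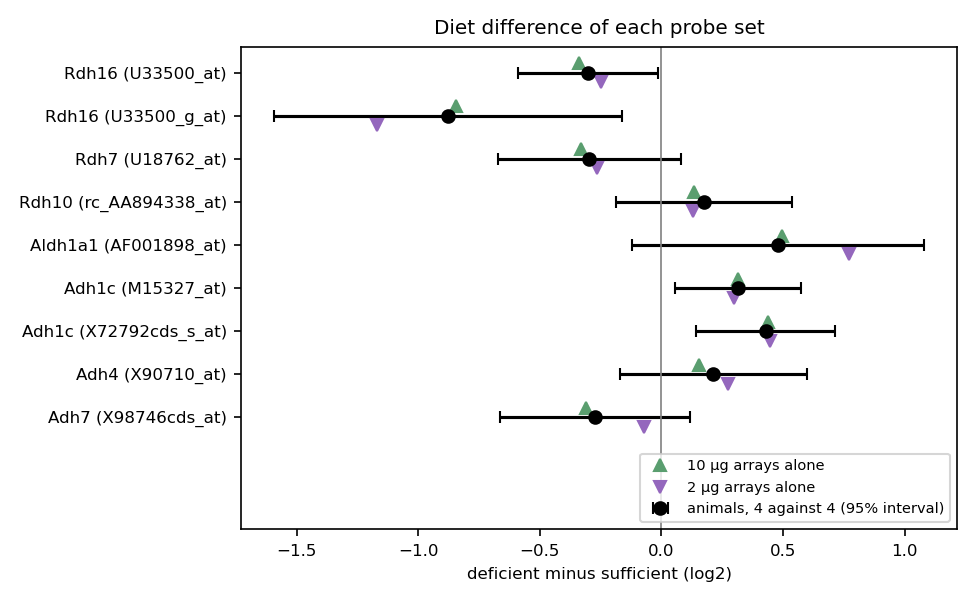
Difference between the diets, deficient minus sufficient on the log2 scale, for each of the 9 probe sets. Black points with bars are the limma estimates from 4 against 4 animals with their 95% intervals, green triangles use only the arrays from about 10 µg of RNA and purple triangles only those from about 2 µg. The intervals of Rdh16 lie below 0 and those of Adh1c above 0, before any adjustment for the number of probe sets tested. Each probe set has the same sign at both amounts, which share animal numbers and are not independent.

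The labels also allow the 2 RNA amounts to be compared. None of the 9 probe sets passed for amount in limma over the 14 arrays (the smallest adjusted p was 0.738), where 0% of all probe sets passed. At an unadjusted p under 0.05 there was 1 of the 9, U33500_at of Rdh16, at 2 µg minus 10 µg of -0.23 (SE 0.11), against 6.62% of all probe sets. This fit did not use the pairing of arrays by number. Within an animal, 2 µg minus 10 µg ran from -0.45 to -0.11 for U33500_at and from -0.45 to -0.13 for U33500_g_at. For every other member probe set that range spanned 0. None of the 9 passed for the interaction of diet and amount either, again with 0% of all passing. At an unadjusted p under 0.05 there were 0 of the 9, the smallest being 0.490, against 1.83% of all. Arrays were simulated with equal animal and array parts of the spread in every probe set. There the fit called 23.0% of 74 probe sets given an interaction of 1 (log2). Most differences of that size between the amounts would be missed in that setting, which need not hold for each member.

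The other genes of the pathway were taken from lists and read with 1 probe set a gene, over which 1.88% of 3135 tested genes passed, with a median difference of 0.05. Of 7 further oxidoreductases with known or possible activity on retinoids, none passed, 3 were positive and 4 negative, and the median was -0.05. Akr7a3, an aldehyde reductase best known for aflatoxin dialdehyde, did not pass, at 11.13 ± 0.51 in sufficient and 10.07 ± 0.30 in deficient livers (difference -1.06, SE 0.24, limma adjusted p = 0.0502). Hsd17b6, a steroid and retinol dehydrogenase of the same family as Rdh16, was -0.64 (SE 0.28, limma adjusted p = 0.320). Akr1c14, a hydroxysteroid dehydrogenase, was 0.27, and the carbonyl reductase Cbr1 was -0.23. Aldh1a2, another retinal dehydrogenase, was too dim to be tested.

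Of 22 tested genes of retinoid transport, storage and response, 2 fell, against 1.05% of all genes in that direction, and 20 did not pass, with a median of 0.02. The list was chosen with earlier results of these data known, so this count is a description only. The genes that fell were Cyp2c7 and Cyp2c22, P450s linked to retinoic acid oxidation, at -7.32 (SE 0.52, limma adjusted p = 3.31e-05) and -3.27 (SE 0.26, limma adjusted p = 5.41e-05). Cyp2c7 went from 12.11 ± 1.24 to 4.80 ± 0.60, a deficient level below that at which probe sets were kept for testing, so it was tested only through the sufficient group and the size of its fall depends on the pseudocount. The next smallest p belonged to the P450s Cyp1a1 at 1.63 and Cyp3a9 at -1.29 (limma adjusted p = 0.0867 and 0.167). The 95% intervals of the 9 dehydrogenase probe sets lay between -1.59 and 1.08.

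Among 13 tested genes of other alcohol and aldehyde oxidation, none passed, 4 were positive and 9 negative, and the median was -0.13. The smallest p in that list belonged to Cyp2e1, the P450 that also oxidizes ethanol, which was 0.43 higher (SE 0.10, limma adjusted p = 0.0690). It was followed by Aldh5a1, the succinate semialdehyde dehydrogenase, at -0.49, Xdh, the xanthine dehydrogenase, at 0.39, and the folate enzyme Aldh1l1 at -0.49. Of 15 tested genes in the list of short-chain steroid dehydrogenases, none passed, 11 were positive and 4 negative, and the median was 0.03. That list also holds other enzymes of lipid metabolism, such as Ehhadh, which is not a short-chain dehydrogenase. There Hsd17b13, a lipid droplet protein with retinol dehydrogenase activity, was 0.42 (SE 0.14, limma adjusted p = 0.187), and Decr2, Bdh1 and Decr1, enzymes of fatty acid and ketone metabolism, were -0.44, -0.32 and 0.40.

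**Figure D5:**
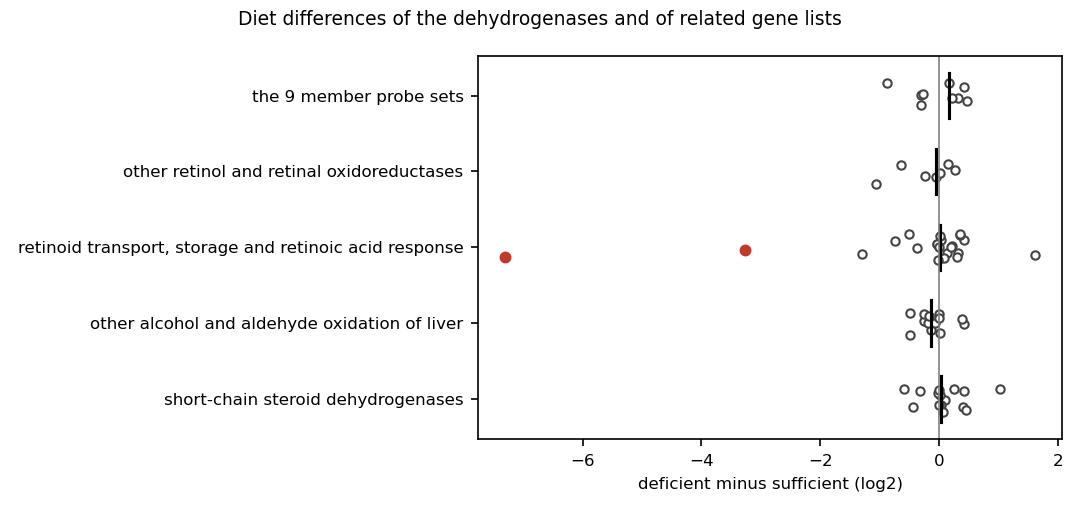
Difference between the diets, deficient minus sufficient on the log2 scale, for the 9 dehydrogenase probe sets and for 1 probe set per gene in 4 related lists. Filled red points passed an adjusted p of 0.05 in limma, open points did not, the vertical bars mark each row's median and the vertical position of points within a row is arbitrary. The filled points are Cyp2c7 at -7.32 and Cyp2c22 at -3.27, and the 9 dehydrogenase probe sets lie between -0.88 and 0.48.

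The genes whose levels were most like each member's over the 8 animals were found by Pearson's r with the member's brightest probe set, the diets pooled. These are descriptions of 8 values that share arrays and scaling. For Rdh16 (U33500_g_at) they were the endoplasmic reticulum chaperone Hspa5 (r = 0.95) and the ribosome-binding membrane protein Lrrc59 (r = 0.94). For Rdh7 they were Kctd13 (r = 0.97) and Stard3 (r = 0.96), and for Rdh10 the antitrypsin gene Serpina1 (r = 0.98) and the syndecan Sdc4 (r = 0.96). Aldh1a1 was most like the phosphate and urate transporter Slc17a1 (r = 0.96) and the riboflavin transporter Slc52a3 (r = 0.96), and Adh1c was most like Dcaf6 and the proteasome subunit Psmc3 (r = 0.97 for each). For the dimmer Adh4 they were Supt5h (r = 0.94) and Washc3 (r = 0.92), and for Adh7 Hprt1 and Dlat (r = 0.93 for each). None of these 14 genes passed the diet comparison in limma.

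Since these genes were picked for likeness over the same animals, a similar spread follows from the choice. Slc17a1, most like Aldh1a1, was 8.67 ± 0.44 in sufficient and 9.14 ± 0.25 in deficient livers. Hspa5, most like the U33500_g_at signal, was 11.80 ± 0.06 in sufficient and 11.44 ± 0.25 in deficient livers, a difference of -0.37 (SE 0.13, limma adjusted p = 0.215). Among the members, the 2 Adh1c probe sets were the most alike (r = 0.91), and U33500_g_at of Rdh16 and X72792cds_s_at of Adh1c the most opposed (r = -0.79).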

How the data were processed

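The authors deposited 1 table of linear intensity values by probe set and array, with the program not given in the sources used here. The values show that each array had been brought to a common trimmed mean. The 59 control probe sets were left out, arrays were scaled to a trimmed mean of 500 (2% off each end), and log2 was taken of the intensity plus 16. Probe sets under the 40th percentile of mean level (6.196) were left out, leaving 5244. The mean shift between RNA amounts was taken out per probe set before arrays of 1 diet and number were averaged. The test was limma (version 3.58.1, in R 4.3.3), lmFit then eBayes with its trend option, on the 8 averages; p-values are two-sided, adjusted by Benjamini-Hochberg over all probe sets tested. The amount and interaction fits used 14 arrays as separate samples, so that arrays of 1 animal counted as independent. Arrays of 1 diet and number correlated at 0.202 to 0.351 in their deviations from group means (6 pairs), against -0.254 to 0.124 for other numbers, so the numbers pair the amounts, a pairing seen in the data, and the random block is given where it changed a call. In lists, the brightest probe set stood for a gene. Members and lists were chosen with earlier results of these data known. All member probe sets are named, with up to 4 genes of each pathway list by p and the 2 most like genes of each member; Aldh1a2, the cell type markers and the patterns of single animals were chosen after their values were seen. Upstream sequences are from RefSeq (GRCr8); the table held 5 of the 7 genes. On simulated arrays the diet fit called 23.8% of 63 probe sets changed by 0.5 (log2), 78.9% of 57 changed by 1 and 100% of 70 changed by 2. The simulation gave each probe set equal animal and array parts of the spread, which need not hold for every member.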

Additional observations from a re-analysis of the deposited data

How the results depend on the processing

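Other settings were a common median or quantiles in place of the trimmed mean, a pseudocount of 1 or 64, all probe sets kept or those above the 60th percentile, array weights, a prior without trend, either RNA amount by itself, the amount shift left in, 14 arrays as separate samples or with a random block, the number across diets as a replicate block, leaving out each animal, and an exact permutation test. No member difference changed sign under any of them, but sizes moved with the scaling. With a common median M15327_at of Adh1c was 0.25 higher and X72792cds_s_at 0.36 higher (limma adjusted p = 0.504 and 0.341). With quantiles these were 0.22 and 0.44. With a filter at the 60th percentile Adh4 was not tested. None of the 9 probe sets passed in the limma fits of averaged values, the replicate block included (0 of the 9, 78 of all probe sets). In the exact permutation test U33500_g_at of Rdh16 was at an unadjusted p = 0.0286. Every probe set whose groups do not overlap has this value, and 8.91% of all probe sets tested did not overlap. With 14 separate arrays, where arrays of 1 animal count as independent, 3 passed, both of Adh1c and U33500_g_at of Rdh16. With the random block 2 passed, both of Adh1c, and for these probe sets the p-values of both fits may be too small. Over all probe sets the count of 90 became 349 and 250 in these fits and 33 in the 2 µg arrays alone, and the 2 pathway genes became 9 and 5, and 4 with array weights or a filter at the 60th percentile. Leaving out 1 animal gave 48 to 94 probe sets and 2 to 4 pathway genes, the lowest count without deficient animal 4 and 59 without sufficient animal 3. The number across diets did not pair the animals (correlations of deviations from -0.08 to 0.07). For RNA amount and for the interaction, the count stayed 0 under every setting run, the replicate block over 12 paired arrays included. Signal over background was not measured here.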
